A study of Rattus norvegicus with 34 samples.

Results

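Testis RNA of adult rats fed triadimefon at 1800 ppm in the diet (T1800, replicates 2 to 5) was compared with testis RNA of rats fed triadimefon at 500 ppm (T500, replicates 1 to 4). The arrays were chosen by these dose labels, which gave 8 arrays, 4 in each group, of the 31 arrays with values and of 34 samples in all. Every animal was a male Wistar Han rat, and feeding ran from gestation day 6 to postnatal day 92, when the testis was taken. The other groups served as reference: Control (0 ppm, 6 arrays), myclobutanil at 500 ppm (M500, 3) and 2000 ppm (M2000, 5), and propiconazole at 500 ppm (P500, 4) and 2500 ppm (P2500, 5). Each array carried the RNA of 1 animal on the Affymetrix Rat Genome 230 2.0 platform. The labels name no litter, so littermates may be among the replicates. All 4 T500 animals and T1800 replicate 2 had numbers of an earlier series, and T1800 replicates 3, 4 and 5 had numbers of a later one. This split, called the animal series here, was inferred from the animal numbers alone. The labels do not say whether it marks a batch of animals or of processing.

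Triadimefon is a triazole fungicide. Triazoles bind the heme of the fungal sterol demethylase Cyp51 and stop ergosterol synthesis, and at higher exposure they can bind mammalian cytochromes P450, among them Cyp51 of cholesterol synthesis, the enzymes that turn cholesterol into testosterone in Leydig cells, and the Cyp26 enzymes that degrade retinoic acid. In the testis, Leydig cells make testosterone under luteinizing hormone, and Sertoli cells respond to it and carry the germ cells from spermatogonium to spermatid. The comparison asks whether the testis transcriptome differs between the mid and the high dose of the same compound.

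Each probe set has a score whose log base is not known, and the scores were made equal in distribution between arrays (quantile normalization). Differences are in score units, which cannot be turned into folds, and scores of different genes are not compared. The 8 arrays were alike. Correlations over all probe sets ran from 0.991 to 0.998 in the 12 pairs of arrays of 1 group (median 0.996) and from 0.992 to 0.996 in the 16 pairs across the groups (median 0.995). BioB, the hybridization control of lowest concentration, was exceeded by 11% to 17.4% of the probe sets on these arrays, so most genes were measured under it. The 3' minus 5' beta-actin score, a measure of RNA integrity called the actin gap here, was 0.790 ± 0.0748 (SD, n = 4) in T500 and 0.852 ± 0.0528 (n = 4) in T1800, a difference of 0.0615 (exact permutation test, two-sided p = 0.23, where the smallest p possible with 70 splits is 0.029). With the scores as deposited that difference was -0.0226. None of the 8 arrays had a gap above 1.4. Testis transcripts were present, with the spermatid markers at a mean score of 3.47 to 3.50 in the T500 arrays and 3.48 to 3.50 in the T1800 arrays. Albumin, a liver transcript, ran from 0.00419 to 1.66, with the highest score in T500 replicate 4.

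A single gene passed the test between the doses. Arhgef28, a guanine nucleotide exchange factor that activates the small GTPase RhoA, was higher at 1800 ppm, and no probe set was called lower. The call was 1 of 31042 probe sets, or 0.00322% (limma, adjusted p under 0.05 by Benjamini-Hochberg over all probe sets). At an unadjusted p under 0.05, 332 probe sets were higher in T1800 (1.07%) and 280 were lower (0.902%), where 1552 in all are expected by chance. That count moved with the fit, from 612 in all to 2271 with only the 8 triadimefon arrays, 1684 without the arrays whose actin gap was above 1.4, 1305 with the actin gap as a covariate, 1078 with the replicate number as a block and 2429 with array weights, and these called 0, 3, 2, 0 and 36 probe sets. The arrays of the groups did not overlap for 693 probe sets that were higher in T1800 (2.23%) and 692 that were lower (2.23%). The median absolute difference was 0.0213, the 99th percentile was 0.12 and the median standard error was 0.0382. The number of arrays limits the precision. At 1 probe set per gene, which the gene lists below use, 6947 of 14217 genes were above 0, 173 were higher and 117 lower at an unadjusted p under 0.05, and 329 did not overlap in each direction.

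The Arhgef28 probe set 1374376_at scored 0.258, 0.275, 0.149 and 0.275 in T500 replicates 1 to 4. In T1800 replicates 2 to 5 it scored 0.816, 0.521, 0.950 and 0.718. The lowest T1800 array lay well above the highest T500 array, with the 4 arrays of the mid dose close together and those of the high dose spread more widely. The means were 0.239 ± 0.061 (SD, n = 4) and 0.751 ± 0.181 (n = 4), a difference of 0.512 (SE 0.0807, limma adjusted p = 0.028, higher in 4 of 4 arrays). T1800 replicate 2, from the same animal series as the T500 animals, was 0.576 above the T500 mean. None of the 8 arrays had this probe set above bioB. The second Arhgef28 probe set, 1396087_at, differed by 0.0394 (SE 0.0301, adjusted p = 1). It did not overlap between the doses, beside 2.23% of all probe sets in this direction. Its scores were -0.088 to -0.052 in T500 and -0.046 to -0.023 in T1800, both inside the Control range of -0.096 to 0.076.

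Control stood near the mid dose for Arhgef28. The 6 control arrays ran from 0.188 to 0.388 with a mean of 0.308 ± 0.0768 (SD). T500 minus Control was -0.0687 (limma adjusted p = 0.80) and T1800 minus Control was 0.443 (adjusted p = 0.033). Over 18 alternatives T1800 minus Control was called in 6 and not in 12, with adjusted p from 0.00025 to 0.58. These comparisons share the control arrays, and they called 0 of 31042 probe sets (0.0%) and 2 of 31042 (0.00644%). Control animals of the earlier number series averaged 0.255 (n = 3) and those of the later series 0.361 (n = 3). The later T1800 arrays ran from 0.521 to 0.950. Animal series is nearly tied to the dose, so their parts in the difference cannot be told apart.

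**Figure D1:**
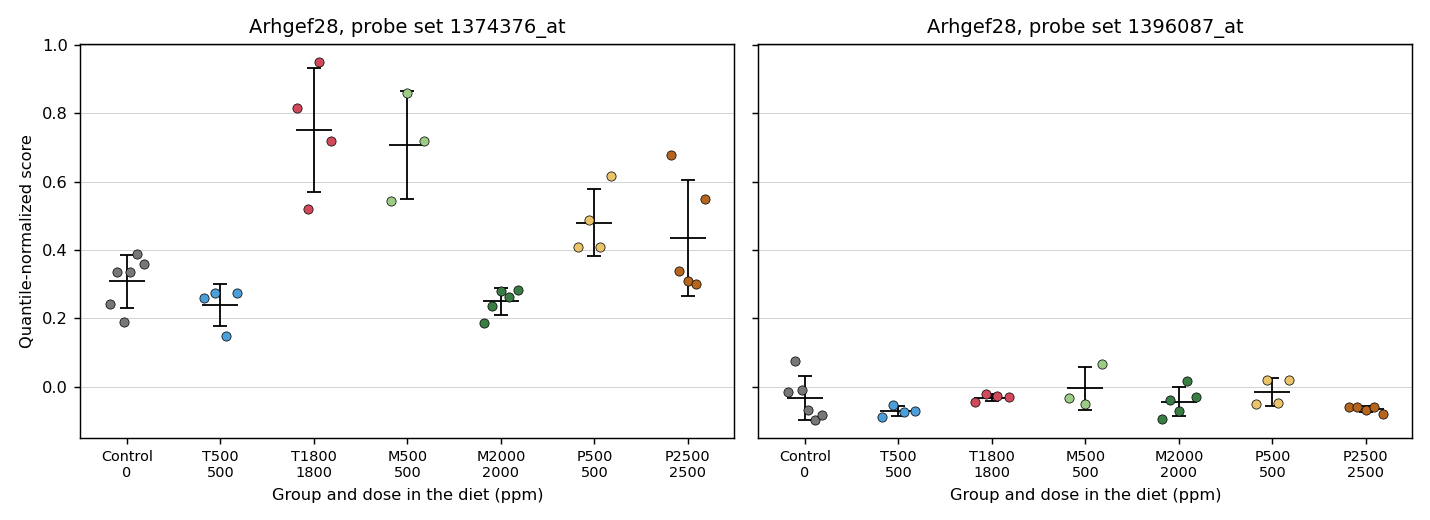
Quantile-normalized scores (y axis) of both Arhgef28 probe sets in each of the 31 arrays by group and dietary dose in ppm (x axis); points are arrays, horizontal lines are means and bars are SD. For probe set 1374376_at the 4 T1800 arrays lie between 0.521 and 0.950 and the 4 T500 arrays between 0.149 and 0.275, while the 3 M500 arrays lie between 0.544 and 0.860.

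The call for Arhgef28 between the doses was not kept in most alternatives. Over 19 alternatives of the processing the difference stayed between 0.446 and 0.589, but the gene was called in 7 of them and not in 12, with limma adjusted p from 0.00036 to 0.78. The highest p came with the animal series as a block (difference 0.481), and the series is nearly tied to the dose. The call also ended with the replicate number as a block (adjusted p = 0.16), with only the 8 triadimefon arrays (0.15), with the scores as deposited (0.23) or scaled to a common spread (0.16), and when any T500 array or T1800 replicate 2, 4 or 5 was left out.

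The step from the mid to the high dose ran the other way for Arhgef28 with myclobutanil. M500 arrays scored 0.544, 0.860 and 0.718, whereas M2000 arrays lay between 0.186 and 0.282. M2000 minus M500 was -0.458 (SE 0.0833, limma adjusted p = 0.26). The triadimefon step exceeded the myclobutanil step by 0.970 (SE 0.116, adjusted p = 2e-04), the only call of 31042 in that contrast (0.00322%), and it was called in all 18 alternatives run, with adjusted p from 2e-05 to 0.0048. The high doses of the compounds differ, so this compares steps of unequal size. Arrays were left out 1 at a time only from T500 and T1800. M500 replicate 4, with an actin gap of 1.603, was left out only together with the other arrays above 1.4.

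With propiconazole, Arhgef28 scored 0.408 to 0.617 in P500 and 0.299 to 0.679 in P2500. P2500 minus P500 was -0.0451 (SE 0.0765, limma adjusted p = 1), and 0.134 without the 3 P2500 arrays that carried liver transcripts. The latter rests on P2500 replicates 1 (0.679) and 5 (0.549), and replicate 5 had an actin gap of 1.467. The triadimefon step exceeded the propiconazole step by 0.557 (SE 0.111, adjusted p = 0.24), and 0 of 31042 probe sets (0.0%) were called in that contrast by limma, with 1035 at an unadjusted p under 0.05. The contrast called 73 probe sets without the arrays whose actin gap was above 1.4 and 489 with array weights.

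The other genes were taken by rule as the 10 of smallest p in each direction, and apart from Arhgef28 none of the 20 passed the test. Their values are a description. The groups did not overlap for 6 of the 10 higher and 8 of the 10 lower genes, but the genes were chosen on this difference. T1800 replicate 2 lay outside the T500 range in the direction of the group difference for 10 of 10 higher and 10 of 10 lower genes, and this array was among those that chose them. The control mean lay between the dose means for 7 of the 10 higher and 9 of the 10 lower genes. With array weights, which give less weight to arrays far from their group, 7 of the 10 higher and 8 of the 10 lower genes passed. Choosing the genes on this difference favours this count and that of the control mean, so neither is further support. For the control mean, the share over all probe sets was not computed.

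None of the following genes passed, and values are given by the role of the gene. Muc1, a transmembrane mucin of epithelial surfaces, scored 0.798, 0.870, 0.747 and 0.843 in T500 and 1.003, 1.10, 1.02 and 0.999 in T1800. The groups did not overlap, and the difference was 0.217 (SE 0.049, limma adjusted p = 0.70). Control averaged 0.997, nearer to the high dose, and T500 minus Control was -0.182 (adjusted p = 0.52). The triadimefon step exceeded the propiconazole step by 0.392 (SE 0.0675, adjusted p = 0.068). Acvr1, a type I receptor for bone morphogenetic proteins, scored -0.142, -0.121, -0.116 and -0.155 in T500 and 0.0767, 0.0486, 0.109 and -0.136 in T1800. Its groups overlapped because T1800 replicate 5 lay at the T500 level. The difference was 0.158 (SE 0.0364, adjusted p = 0.70), and without that array it was 0.212 (adjusted p = 0.0027), then the only call. Its other probe sets differed by 0.000488 and 0.0497. Cdh2, the adhesion molecule N-cadherin, differed by 0.0751 (SE 0.0204) and did not overlap between the doses.

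Slc7a7, a subunit of a cationic amino acid exchanger, ran from -0.224 to -0.175 in T500 and from -0.128 to -0.0620 in T1800, with no overlap and a difference of 0.108 (SE 0.0268, limma adjusted p = 0.97). Slc36a3, of the family of proton-coupled amino acid transporters, differed by 0.189 (SE 0.0513), with M2000 minus M500 at 0.167. Igfbp7, a secreted protein that binds insulin-like growth factors, scored 1.80, 1.84, 1.77 and 1.65 in T500 and 2.05, 2.01, 2.05 and 1.83 in T1800. Only T1800 replicate 5 fell within the T500 range, and the difference was 0.220 (SE 0.0599, adjusted p = 1).

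Ky, a protease-like protein of skeletal muscle, was measured by a pair of probe sets that gave like values. Probe set 1389694_at scored 1.49, 1.47, 1.31 and 1.35 in T500 and 1.66, 1.62, 1.68 and 1.64 in T1800. Probe set 1375445_at averaged 1.38 in T500 and 1.62 in T1800. Both were without overlap, with differences of 0.243 (SE 0.0618) and 0.247 (SE 0.064) and limma adjusted p = 1 each. The first lay above bioB on all 8 arrays.

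COX1, the symbol given for cytochrome c oxidase subunit 1 of the respiratory chain, scored 4.31, 3.97, 3.98 and 3.85 in T500 and 4.39 in each T1800 array. The T1800 scores are identical because the probe set held the same rank on each array, which quantile normalization turns into the same score. The difference was 0.365 (SE 0.0847, limma adjusted p = 0.70), and Control averaged 4.40. S100b, a calcium-binding protein taken because it had stood apart from Control in earlier results of these arrays, scored 0.238, 0.196, 0.432 and 0.190 in T500 and 0.518, 0.368, 0.544 and 0.398 in T1800. T500 replicate 3 lay within the T1800 range, and the difference was 0.193 (SE 0.0456, adjusted p = 0.77). S100b averaged 0.205 in Control, and T1800 minus Control was 0.252 (adjusted p = 0.033). S100b was taken for standing apart from Control on these same arrays, so this p is no further support.

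Ssbp2, a single-stranded DNA-binding protein that takes part in transcription complexes, came closest to a call among the lower genes. It scored 0.858, 0.824, 0.874 and 0.770 in T500 and 0.619, 0.650, 0.622 and 0.658 in T1800. The groups did not overlap and Control lay between them at 0.752. The difference was -0.194 (SE 0.0351, limma adjusted p = 0.12), lower in 4 of 4 arrays, and it passed without the arrays whose actin gap was above 1.4 (adjusted p = 0.017) and with array weights (0.00026), and in no other of the 19 alternatives, where it reached 1. The other Ssbp2 probe set overlapped and differed by -0.0245 (SE 0.0368).

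Macroh2a2, which encodes a macroH2A histone variant, scored 0.556, 0.508, 0.546 and 0.340 in T500 and 0.286, 0.177, 0.313 and 0.437 in T1800. The ranges overlapped, the difference was -0.184 (SE 0.0526, limma adjusted p = 1) and Control averaged 0.551, close to the mid dose. Its other probe set differed by 0.00836. Shld2, a subunit of the shieldin complex at DNA double-strand breaks, scored 0.651 to 0.726 in T500 and 0.467 to 0.601 in T1800. It did not overlap between the doses and differed by -0.167 (SE 0.0452, adjusted p = 1), while its other probe set overlapped and differed by 0.0200. Eri2, of a family of 3' exonucleases, differed by -0.0758 (SE 0.0202, and -0.0275 on its other probe set), and Zfp365, a zinc finger protein, by -0.104 (SE 0.0269), both without overlap.

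Lepr, the leptin receptor, differed by -0.0842 (SE 0.0186, limma adjusted p = 0.70) on probe set 1388260_a_at, whereas its other 6 probe sets overlapped between the doses, with differences from -0.0327 to 0.0138. Epha3, an ephrin receptor, differed by -0.144 (SE 0.037), with overlap of 1 T500 array, and its other probe sets differed by -0.143 and -0.0269. Prl7d1, a member of the prolactin family known from placenta, differed by -0.164 (SE 0.0402). Gzmb, granzyme B of cytotoxic lymphocytes, differed by -0.130 (SE 0.0298), while its other probe set differed by -0.0021. Lacc1, an enzyme of purine metabolism in macrophages, differed by -0.108 (SE 0.0303). Of the 10 lower genes, 9 were above bioB on no array of the 8, and of the 10 higher genes 5 were.

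**Figure D2:**
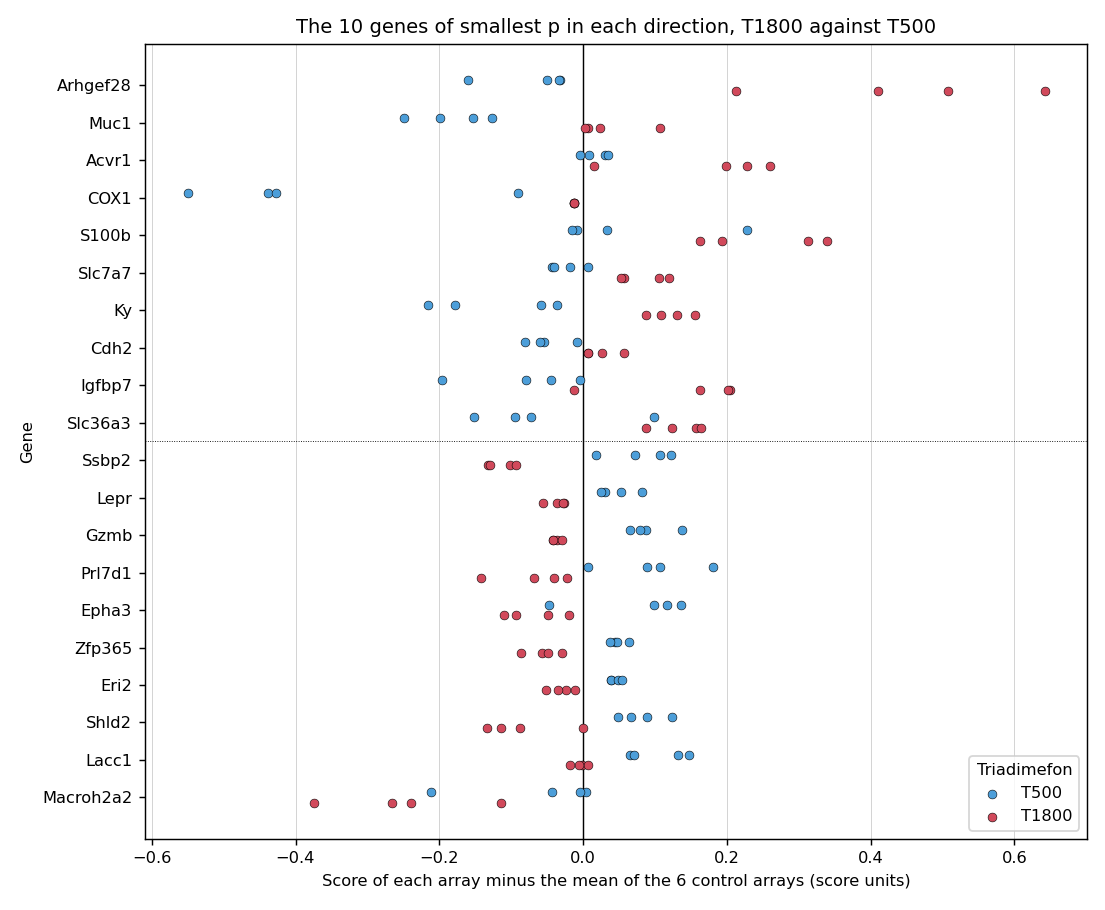
Score of each T500 and T1800 array minus the mean of the 6 control arrays (x axis, score units) for the 10 genes of smallest p in each direction (y axis); each point is 1 array and the vertical line is the control mean. Arhgef28 stands apart with T1800 arrays to the right of all T500 arrays, and Muc1 and COX1 have T1800 arrays near the control mean and T500 arrays below it.

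Against the steps of the other triazoles, the named genes showed no common direction. Of the 10 higher genes, M2000 minus M500 was positive for 4 and P2500 minus P500 for 4. Of the 10 lower genes, M2000 minus M500 was negative for 7 and P2500 minus P500 for 6. Apart from Arhgef28 against myclobutanil, the difference between the steps passed for none of the 20 genes.

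**Figure D3:**
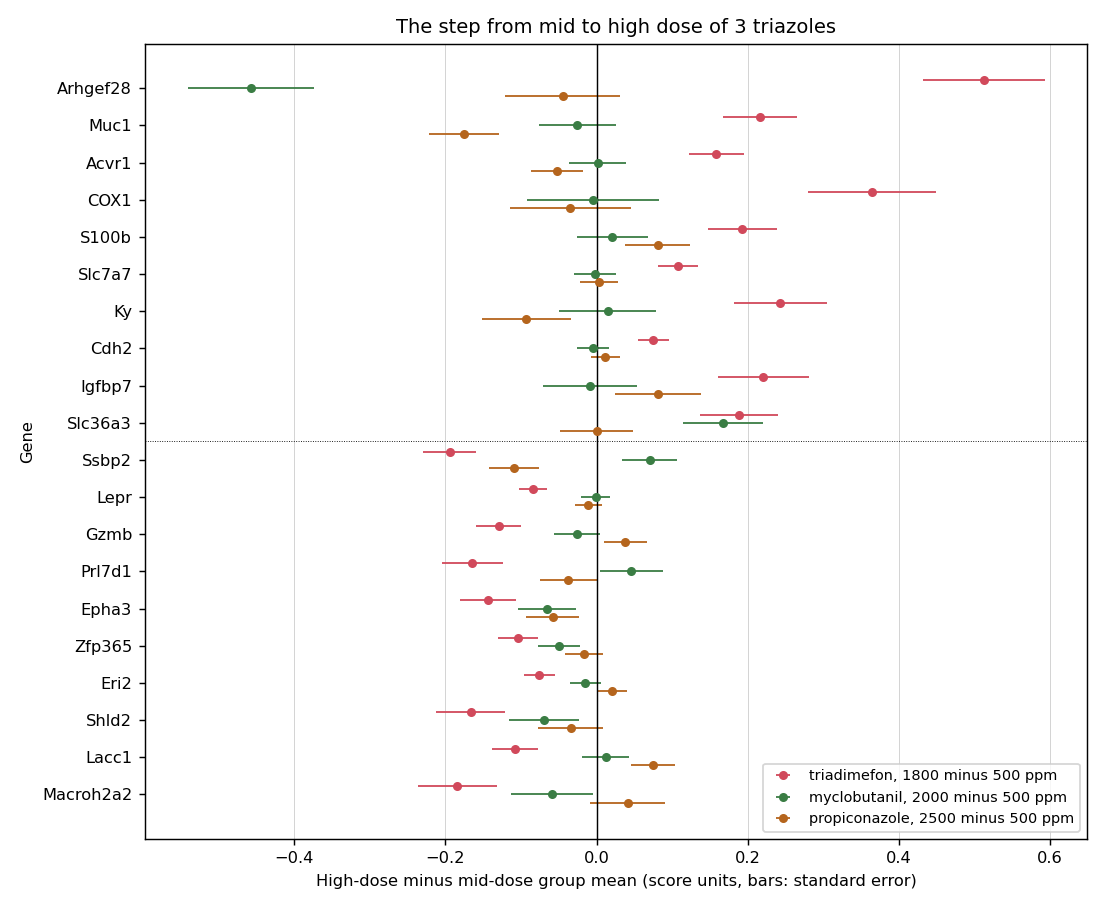
High-dose minus mid-dose group mean (x axis, score units, bars are standard errors) for triadimefon, myclobutanil and propiconazole in the 20 named genes (y axis). The triadimefon step of Arhgef28 is 0.512 and its myclobutanil step is -0.458, the widest gap in the plot.

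The genes that triazoles are known to act on did not pass between the doses. All had a limma adjusted p of 1, and the arrays of the doses overlapped for each. Cyp51, the sterol demethylase, scored 1.11, 1.15, 0.983 and 1.01 in T500 and 1.06, 1.12, 1.08 and 1.08 in T1800, a difference of 0.0229 (SE 0.137). Cyp26b1, which degrades retinoic acid, averaged 1.21 ± 0.118 in T500 and 1.16 ± 0.0205 in T1800 (SD, n = 4 each), a difference of -0.0451 (SE 0.134). Por, the reductase that feeds electrons to microsomal P450 enzymes, differed by 0.0127 (SE 0.0498). Of 27 genes of cholesterol synthesis and uptake measured, 0 passed, 0 had an unadjusted p under 0.05 and 15 were above 0, with a median difference of 0.00551 beside -0.00143 over all probe sets. Of 19 genes of retinoic acid metabolism and signalling, 0 passed, 0 had an unadjusted p under 0.05 and 11 were above 0 (median 0.0106).

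No transcript measured in the steroidogenesis list passed between the doses, and steroids themselves were not measured here. Star, which brings cholesterol into the mitochondrion, scored 0.513, 0.477, 0.498 and 0.909 in T500 and 0.735, 0.745, 0.726 and 0.580 in T1800. T500 replicate 4 was high and T1800 replicate 5 low, so that the groups overlapped, and the difference was 0.0977 (SE 0.139). Cyp11a1, which cleaves the cholesterol side chain, scored 1.26, 1.28, 1.14 and 1.46 in T500 and 1.29, 1.12, 1.397 and 0.753 in T1800, a difference of -0.146 (SE 0.126). The low array was again T1800 replicate 5. Cyp17a1, the 17-hydroxylase and lyase, averaged 2.00 ± 0.118 and 2.01 ± 0.117 (SD, n = 4 each), a difference of 0.00517 (SE 0.158) that was negative in 7 of the alternatives. Control averaged 1.55 for it.

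Other Leydig cell genes gave small differences. Hsd17b3, which makes testosterone from androstenedione, scored -0.0616, -0.00467, 0.0314 and 0.0360 in T500 and 0.146, 0.05003, 0.0831 and 0.0185 in T1800, a difference of 0.0742 (SE 0.0274, limma adjusted p = 1). T1800 replicate 5 fell within the T500 range. Insl3, the Leydig cell hormone, differed by 0.0809 (SE 0.199) and Lhcgr, the luteinizing hormone receptor, by -0.0156 (SE 0.0659). In the steroidogenesis list of 18 genes measured, 0 passed, 1 (Hsd17b3) was higher at an unadjusted p under 0.05, 11 were above 0 and the median was 0.00842. Nr5a1, the transcription factor of steroid-making cells, differed by 0.0816 (SE 0.0447) and Hsd3b1 by -0.135 (SE 0.114). The 7 Leydig cell markers, Hsd17b3 among them and all also in the steroidogenesis list, had a median of 0.00517 with 4 above 0.

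Xenobiotic and stress genes were also without a call. In the list of xenobiotic metabolism and transport, 0 of 29 passed, 1 was higher and 1 lower at an unadjusted p under 0.05, and the median was -0.00125. Cyp2g1, a cytochrome P450 of the olfactory mucosa, scored 0.341, 0.300, 0.262 and 0.221 in T500 and 0.442, 0.301, 0.479 and 0.459 in T1800, a difference of 0.139 (SE 0.0388, limma adjusted p = 1), with T1800 replicate 3 inside the T500 range. Cyp1b1, which oxidizes steroids and aromatic compounds, scored 1.25, 1.41, 1.59 and 1.38 in T500 and 1.29, 1.21, 1.23 and 1.05 in T1800, a difference of -0.209 (SE 0.0817, adjusted p = 1). Abcc3, an export pump for conjugates, did not overlap and differed by 0.0530 (SE 0.0273), beside 329 of 14217 genes without overlap in this direction.

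Of 17 genes of the NRF2 and antioxidant response, 0 passed, 1 (Slc7a11) was higher at an unadjusted p under 0.05, 9 were above 0 and the median was 0.00338. Slc7a11, the cystine importer, scored 0.283, 0.357, 0.300 and 0.310 in T500 and 0.488, 0.593, 0.526 and 0.317 in T1800. The arrays at the high dose were above the mid dose except T1800 replicate 5, and the difference was 0.169 (SE 0.0701, limma adjusted p = 1). Of 16 genes of endoplasmic reticulum stress, 11 were above 0 (median 0.0174, but -0.0284 with arrays scaled to a common spread). Of 19 immediate early and heat shock genes, 9 were above 0 (median -0.000476). Of 16 genes of the p53 response and apoptosis, 6 were above 0 (median -0.00868) and 2 were lower at an unadjusted p under 0.05. These were Perp and Bid, both proapoptotic, which did not overlap, with differences of -0.0734 (SE 0.028) and -0.0546 (SE 0.026). Ccng1, a cyclin induced by p53, did not overlap in the other direction, at 0.0484 (SE 0.0558), beside 2.23% of all probe sets each way. No gene of these lists passed.

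Among energy genes, 18 of 22 genes of fatty acid oxidation were above 0, with a median of 0.0328. None passed and none had an unadjusted p under 0.05. Examples are Etfa, a subunit of the electron transfer flavoprotein, at 0.0922 (SE 0.054), and Acadm, the medium-chain acyl-CoA dehydrogenase, at 0.0768 (SE 0.0555). Hadh, a hydroxyacyl-CoA dehydrogenase, was the member without overlap, at 0.0602 (SE 0.0632), beside 329 of 14217 genes in this direction.

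Matrix and fibroblast genes lay above 0 more often than below, but Dcn, Lum, Col1a1, Col1a2, Col3a1 and Fbln1 are in both lists. In bulk tissue, fewer cells of a type and less RNA per cell cannot be told apart. Of 10 fibroblast markers, 9 were above 0 (median 0.0594), 0 passed and 1 had an unadjusted p under 0.05. Dpt, the matrix protein dermatopontin, scored 0.733, 0.670, 0.704 and 0.426 in T500 and 1.11, 0.741, 1.12 and 0.766 in T1800, without overlap, a difference of 0.303 (SE 0.147, limma adjusted p = 1). T500 replicate 4 was the lowest array for Dpt, for the proteoglycan Dcn (0.892 beside 1.17 to 1.42 in the other T500 arrays) and for the collagen Col1a2 (0.779 beside 1.15 to 1.25). Dpt stands beside 329 of 14217 genes higher without overlap. The list median ran from -0.00107 to 0.144 when 1 array at a time was left out. The mean score of the markers was 0.566 to 0.896 over the T500 arrays, 0.821 to 0.854 over the T1800 arrays and 0.489 to 0.754 over the control arrays.

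Of 35 extracellular matrix genes, 26 were above 0, beside 6947 of 14217 over all genes (median 0.0202, and -0.00103 to 0.0375 without 1 array). Of these 35, 0 passed and 3 had an unadjusted p under 0.05, all higher, beside 173 of 14217 genes higher in this way. Col4a1, a basement membrane collagen, scored 0.548, 0.534, 0.516 and 0.451 in T500 and 0.572, 0.594, 0.592 and 0.605 in T1800, without overlap, a difference of 0.0786 (SE 0.0266, limma adjusted p = 1). Sparc, a collagen-binding glycoprotein, scored 1.37, 1.30, 1.03 and 0.999 in T500 and 1.30, 1.37, 1.36 and 1.45 in T1800. T500 replicates 1 and 2 lay at the level of T1800 for Sparc, and the difference was 0.195 (SE 0.0901, adjusted p = 1). Fbln5, an elastic fibre protein, differed by 0.0621 (SE 0.0258). Like Col4a1, Col6a2 did not overlap, and it differed by 0.0794 (SE 0.0523), beside 329 of 14217 genes higher without overlap.

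Macrophage markers were above 0 for 13 of 19, with a median of 0.0329 that stayed between 0.0168 and 0.0509 over all settings run, none passed and 1 (C1qa) was higher at an unadjusted p under 0.05. C1qa, a chain of complement C1q, scored 0.102, 0.138, 0.157 and 0.0745 in T500 and 0.257, 0.255, 0.268 and 0.195 in T1800. The groups did not overlap, and the difference was 0.126 (SE 0.0388, limma adjusted p = 1, and 0.047 with array weights). Fcer1g, the shared gamma chain of Fc receptors, did not overlap either and differed by 0.0977 (SE 0.0563). Both stand beside 329 of 14217 genes higher without overlap. Cd74, the invariant chain of antigen presentation, overlapped and differed by 0.155 (SE 0.0799). Markers of the same cells that lay near or below 0 included Csf1r at 0.00654, Adgre1 at -0.00478 and Mrc1 at -0.0348.

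Germ cell and Sertoli cell markers did not pass. The 17 spermatid markers had a median of 0.00204 and the 8 spermatocyte markers one of 0.00750, but with the scores as deposited these medians were -0.177 and -0.0570, and with arrays scaled to a common spread -0.232 and -0.0850, so their direction depends on the scaling. Of 8 spermatogonial markers, 2 were above 0 (median -0.0166), and Nanos3, an RNA-binding protein of early germ cells, did not overlap, with a difference of -0.0488 (SE 0.0259). The 13 Sertoli cell markers had a median of -0.000164. Among them, the list entry Trf was matched through a synonym to Trh (-0.02545), a different gene. Gata1, a transcription factor of Sertoli cells and erythroid cells, did not overlap and differed by -0.0314 (SE 0.0225). Nanos3 and Gata1 stand beside 329 of 14217 genes lower without overlap. Inha, the inhibin alpha subunit, differed by 0.101 (SE 0.085).

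Endothelial markers had a median of -0.00574, with 2 of 10 above 0, none past the test and 1 (Flt1) lower at an unadjusted p under 0.05. Flt1, a receptor for vascular endothelial growth factor, scored 0.149, 0.170, 0.264 and 0.175 in T500 and 0.104, 0.0322, 0.0729 and 0.101 in T1800, without overlap, a difference of -0.112 (SE 0.0321, limma adjusted p = 1). Flt1 stands beside 329 of 14217 genes lower without overlap. Eng, a coreceptor of transforming growth factor beta, differed by -0.100 (SE 0.068). The 11 markers of peritubular and smooth muscle cells had a median of 0.00559.

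Markers of tissues beside the testis gave small medians. Of 16 liver genes, 1 was above 0 (median -0.0270), with a mean score of -0.0882 to 0.172 over the T500 arrays, -0.124 to -0.0185 over the T1800 arrays and -0.132 to 0.199 over the control arrays. The median ran from -0.0536 to 0.00510 without 1 array. Of 8 epididymis genes, 1 was above 0 (median -0.0330). That gene was Crisp3 at 0.0137, matched through a synonym to the list entry Crisp1. The median was -0.00894 for 6 erythrocyte markers, 3.18e-05 for 8 adipocyte markers, -0.0021 for 11 markers of mast cells and lymphocytes and -0.0213 for 9 markers of rete testis and efferent ducts. No gene of these lists passed, and 1 adipocyte marker was higher at an unadjusted p under 0.05. Krt19, a keratin of duct epithelium, was the member of the last list without overlap, at 0.0745 (SE 0.043). It stands beside 329 of 14217 genes higher without overlap. The part of other tissues in the differences above was not tested.

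**Figure D4:**
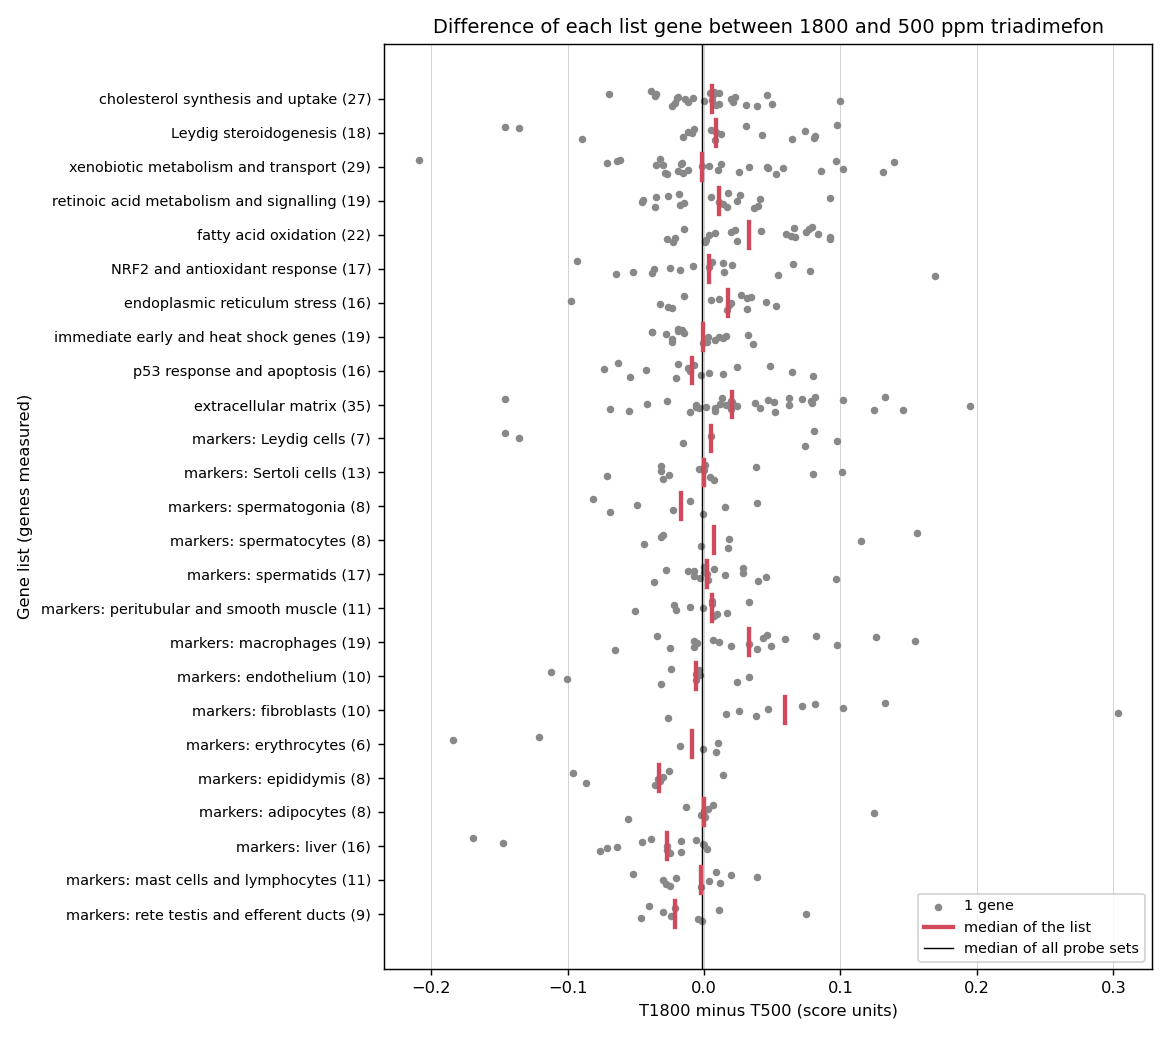
T1800 minus T500 (x axis, score units) of every gene measured in the 25 lists (y axis, number of genes in brackets); grey points are genes, red bars are list medians and the vertical line is the median of all probe sets. The medians lie between -0.0330 (epididymis) and 0.0594 (fibroblasts), and the fibroblast gene farthest to the right is Dpt at 0.303.

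Differences above 0.5 were found for 4 probe sets, Arhgef28 among them. The other 3 were chosen after their values were seen, and none passed. Probe set 1391512_at, which the platform annotation pairs with no gene, scored -0.132, -0.228, -0.212 and -0.115 in T500 and 1.23, 0.174, 1.35 and 1.003 in T1800. The groups did not overlap, T1800 replicate 3 lay far below the other T1800 arrays, and the difference was 1.11 (SE 0.236, limma adjusted p = 0.54). Control ran from 0.847 to 1.46, so that T500 lay below every control array, with T500 minus Control at -1.31 (SE 0.216, adjusted p = 0.055). Low scores were also found in other groups, with P2500 from -0.206 to 0.298, and with the lowest array at -0.130 in M500, -0.0390 in P500 and 0.0631 in M2000.

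Wtap, which encodes a regulatory subunit of the RNA m6A methyltransferase, scored 2.14, 2.22, 1.94 and 1.75 in T500 and 1.06, 1.78, 0.608 and 0.685 in T1800. T1800 replicate 3 lay within the T500 range. The difference was -0.980 (SE 0.296, limma adjusted p = 1), and the scores of the control and P2500 arrays also spread widely, from 0.892 to 1.83 and from 0.759 to 2.00. Noxred1, an oxidoreductase-like gene, scored 2.87, 2.96, 2.55 and 2.81 in T500 and 1.91, 2.56, 1.52 and 2.44 in T1800, a difference of -0.690 (SE 0.222, adjusted p = 1). T1800 replicate 3 again lay at the T500 level.

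**Figure D5:**
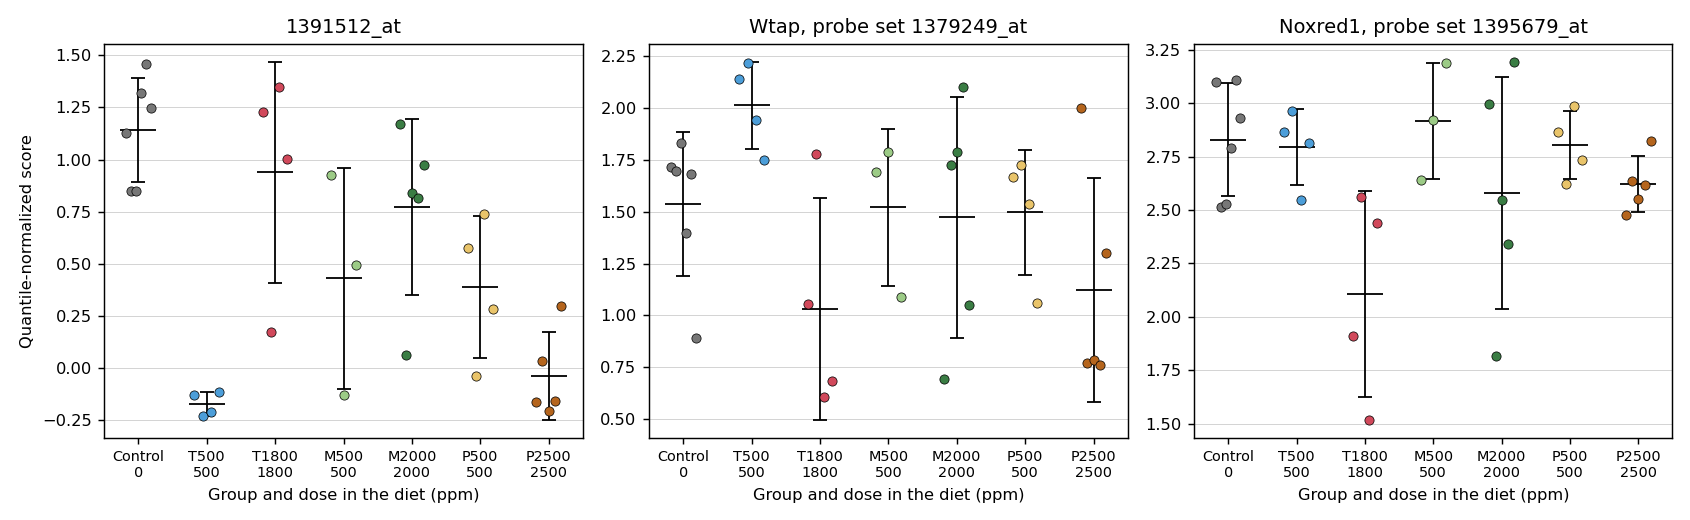
Quantile-normalized scores (y axis) of the 3 probe sets other than Arhgef28 with an absolute difference above 0.5, in each of the 31 arrays by group and dietary dose in ppm (x axis); points are arrays, horizontal lines are means and bars are SD. Scores of probe set 1391512_at run from -0.228 in T500 to 1.46 in Control, and T1800 replicate 3 is the T1800 array nearest to the T500 mean in all 3 panels.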

How the data were processed

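The deposited values are the authors' scores per probe set, log-like and centred near 0 on each array. Normalization, probe summary and log base remain not given in the sources used here. Per the labels' protocols, RNA was DNase treated, column cleaned, checked on a Bioanalyzer and used at 5 µg per array. Of 31099 probe sets, 57 controls were left out and 31042 tested. Platform annotation, which can be old, gave 1 gene symbol for 20826, none for 9780 and more than 1 for 436, which were not named. The scores of 31 arrays were quantile normalized and fitted with a mean per group and equal weights in limma 3.58.1 (R 4.3.3), two-sided. Benjamini-Hochberg adjustment ran over all probe sets, with 0.05 as threshold. The code of the fit was run on simulated data with independent noise in each probe set. That run does not bear on the calls reported here. Named were the 10 genes of smallest p in each direction, up to 3 members of each list by smallest p, and 11 further genes. Other members, the 3 probe sets above 0.5 and the second probe sets were chosen after their values were seen. Lists took the probe set of highest mean per gene, and entries without a matching symbol were matched through a synonym. 379 of 431 entries in 25 lists were measured, and 18 genes are in more than 1 list. Members and lists were chosen with earlier results of these data known. Samples carry replicate numbers, but deviations from the group means of equal numbers correlated at 0.023, -0.11 and -0.067 for replicates 2, 3 and 4, so the numbers were not taken as pairs. The value columns of 3 samples left out by the authors were empty. 19 alternatives were run, among them the deposited scores, other array sets and weights, blocks, and leaving out each T500 and T1800 array.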

Additional observations from a re-analysis of the deposited data

Results flagged for a closer look

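Within the groups of 4 arrays, 4 of 60 sets of scores held an array far from the other 3 (gap over range above Dixon's 0.829), and chance does this in about 1 in 20 groups. Arhgef28 was lowest in T500 replicate 3 at 0.1485 (0.864 of the group's range). Star was highest in T500 replicate 4 at 0.9087 (0.915) and lowest in T1800 replicate 5 at 0.5802 (0.881). Cyp26b1 was highest in T1800 replicate 3 at 1.191 (0.849), in a group whose other arrays lay within a narrow range. A difference between compounds was found for Arhgef28, where the triadimefon step from mid to high dose exceeded the myclobutanil step by 0.9695 score units (limma adjusted p = 2e-04).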

How the results depend on the processing

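The count of probe sets called between T1800 and T500 was 1. It was 0 with the scores as deposited, with arrays scaled to a common median absolute deviation, with only the 8 triadimefon arrays, with the animal series as a block and with the replicate block (1078 at an unadjusted p under 0.05, smallest limma adjusted p 0.16). A covariate for the actin gap gave 2, leaving out arrays whose gap exceeded 1.4 gave 3, and array weights gave 36. It was 0 to 2 without 1 array at a time. Without T1800 replicate 3 the calls were Arhgef28 and 1391512_at, and without T1800 replicate 5 the single call was Acvr1. The cause of these changes was not tested. The contrast with the myclobutanil step gave 1 call, and 7 with array weights. That with the propiconazole step gave 0, but 1 with the series block, 3 with the actin covariate, 73 without arrays whose gap exceeded 1.4, 489 with array weights and 0 to 3 without 1 array (3 without T1800 replicate 3, 1 without T1800 replicate 5). The replicate block changed no other call. The actin gap between the doses was -0.0226 with deposited scores, and 0.0328 to 0.0896 without 1 array.

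All 20 genes of smallest p kept their direction in the alternatives run. They were chosen on this difference and the alternatives reuse the same arrays, so this is no further support. Genes that changed sign passed in no alternative (limma adjusted p of 0.43 or more). Cyp51 was -0.000976 with the series block, -0.0167 with the actin covariate, -0.0616 with the replicate block and -0.00423 to 0.0522 without 1 array (lowest without T500 replicate 3). Cyp17a1 was -0.0588 deposited, -0.0812 scaled, -0.00534 with weights, -0.0306 with the replicate block, and -0.0489 to 0.0564 without 1 array, below 0 without T500 replicate 3, T1800 replicate 3 (-0.0380) and T1800 replicate 4 (-0.00451). Lhcgr was 0.00826 with the series block, and -0.0552 to 0.0299 without 1 array, above 0 without T500 replicate 4 and T1800 replicate 5 (0.0278). Por was -0.0129 to 0.0241 without 1 array (lowest without T500 replicate 3), and Col1a2 was -0.00103 without T500 replicate 4. With the series block, Lss was 0.00395 and Sycp1 -0.131. Hspa2 was -0.0513 deposited and -0.0933 scaled, and Tssk2 -0.0960 and -0.138. P2500 minus P500 of Arhgef28 was 0.134 without the arrays with liver transcripts, which left only P2500 replicates 1 and 5.

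Most probe sets scored under the lowest hybridization control, and 4 arrays a group limit the precision. The animal series is nearly tied to the dose, with 1 T1800 array in the earlier series.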
